A study of Homo sapiens with 8 samples.

Results

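Hemidesmosomes are the plaques by which basal epithelial cells, and squamous carcinoma cells that keep basal features, hold to the basement membrane. Their genes were examined here as 6 loci in the p63 binding maps of CAL27 and SCC13. The loci were ITGA6, ITGB4, COL17A1, DST, PLEC and ITGA3, each taken as a fixed window of the hg19 genome around the gene. A p63 region was counted at a locus when its midpoint lay in the window. The windows held 35 of the 15267 distinct regions in both lists: 32 of the 13829 CAL27 regions and 16 of the 5886 SCC13 regions, of which 13 were listed in both lines.

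CAL27 and SCC13 are established human squamous cell carcinoma lines, CAL27 from the tongue and SCC13 from the skin. Each was labelled wild type and untreated, and had 2 p63 immunoprecipitation samples and 2 samples titled none, 8 in all. CAL27 was grown in DMEM F:12 with serum, and SCC13 in Keratinocyte-SFM with pituitary extract, EGF and calcium chloride, so that line and medium cannot be told apart. The deposited p63 data are 1 list per line covering both replicates, with positions and no score. There is therefore no spread between replicates and no test between the lines, and absence from a list does not show that p63 was absent.

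The core of a type I hemidesmosome is the laminin receptor made of the integrin chains encoded by ITGA6 and ITGB4. It joins the transmembrane collagen encoded by COL17A1, also called BP180, and is tied to keratin filaments by plakins, the plectin encoded by PLEC and the short epithelial form of dystonin encoded by DST, called BP230 or BPAG1e. ITGA3 encodes an integrin chain that pairs with the beta 1 chain; it binds the same laminin at other contacts with the basement membrane and is not a structural part of the plaque. p63, the product of TP63, is the transcription factor that maintains basal keratinocytes, and loss of it is known to weaken the adhesion programme of epithelial cells. Inherited defects of COL17A1, ITGA6 and ITGB4 cause junctional forms of epidermolysis bullosa, and those of DST and PLEC cause simplex forms.

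The bound regions themselves cannot be shown as sequence, because no hg19 genome was used. The starts of 3 of the 6 genes were read from RefSeq promoters of another build, GRCh38.p14, as the 250 bases before each start. PLEC was left out by plan, and no entry was found for ITGB4 or ITGA3. Promoter bases are shown because p63 recognises pairs of a 10-base element shared with p53, the p53 family decamer. Matches to the decamer consensus and to its commonest core, CATG, were sought; both read the same on either strand, and a decamer match can contain the core. Among all 35116 RefSeq promoter entries, 5.57% held at least 1 decamer and 47.6% at least 1 CATG in these 250 bases. COL17A1, with 1 start, held 1 decamer, from 55 to 46 bases before the start, and 3 CATG including the one within it. The 3 starts of DST and the 2 of ITGA6 held no decamer, and CATG occurred at 1 start of each. In the sequences, capitals mark every CATG and, in COL17A1, the whole decamer. The COL17A1 sequence lies at chr10:104085881-104086130 on the minus strand, that of the innermost DST start at chr6:56642890-56643139 on the minus strand, and that of the outermost ITGA6 start at chr2:172427086-172427335 on the plus strand, all in GRCh38.p14.
COL17A1: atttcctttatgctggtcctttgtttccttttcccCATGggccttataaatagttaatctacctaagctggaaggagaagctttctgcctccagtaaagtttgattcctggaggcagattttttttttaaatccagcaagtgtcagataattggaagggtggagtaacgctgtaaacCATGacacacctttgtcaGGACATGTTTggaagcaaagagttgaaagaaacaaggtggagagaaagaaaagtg
DST, innermost start: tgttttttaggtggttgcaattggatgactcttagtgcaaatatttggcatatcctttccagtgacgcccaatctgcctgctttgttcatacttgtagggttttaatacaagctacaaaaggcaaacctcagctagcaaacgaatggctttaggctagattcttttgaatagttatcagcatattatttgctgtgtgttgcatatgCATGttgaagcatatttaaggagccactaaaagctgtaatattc
ITGA6, outermost start: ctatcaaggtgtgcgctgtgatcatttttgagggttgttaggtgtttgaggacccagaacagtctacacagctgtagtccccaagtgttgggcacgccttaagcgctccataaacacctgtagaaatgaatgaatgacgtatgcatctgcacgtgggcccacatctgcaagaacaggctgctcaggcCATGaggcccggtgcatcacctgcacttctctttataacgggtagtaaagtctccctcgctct

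These positions are not on the hg19 scale of the p63 lists. Whether any listed region covers one of these starts was therefore not determined, and a match in the letters is a description of the sequence, not a site of binding.

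Every locus but COL17A1 held p63 regions in both lines, and the number ran from 2 at ITGA3 to 10 at DST in CAL27, and from none at COL17A1 to 5 at ITGB4 in SCC13. CAL27 had 10 regions at DST, 8 at PLEC, 6 at ITGB4, 3 at ITGA6, 3 at COL17A1 and 2 at ITGA3. SCC13 had 5 at ITGB4, 4 at PLEC, 3 at DST, 2 at ITGA6, 2 at ITGA3 and 0 at COL17A1. The order of the loci by count thus differed between the lines, with DST first in CAL27 and ITGB4 first in SCC13. Over the 6 loci CAL27 had 2.00 times as many regions as SCC13, beside 2.35 for the whole lists. The loci took 0.231% of the CAL27 list (95% exact binomial interval 0.158 to 0.327) and 0.272% of the SCC13 list (0.155 to 0.441). These intervals cover counting error only. They do not compare the lines, because 13 of the regions are in both lists.

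**Figure D1:**
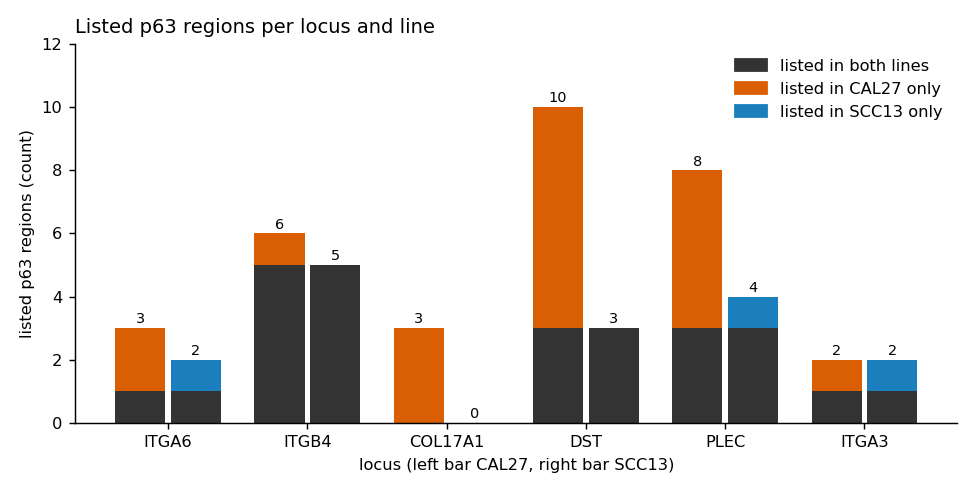
Number of listed p63 regions (y axis) at each of the 6 loci (x axis), with CAL27 as the left bar and SCC13 as the right bar of each pair. Dark parts are regions listed in both lines, orange parts those listed in CAL27 only and blue parts those listed in SCC13 only; 5 of the 6 CAL27 regions at ITGB4 are dark, and the 3 at COL17A1 are all orange.

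Of the 32 CAL27 regions at the loci, 13 were also listed in SCC13, or 40.6% (exact binomial interval 23.7 to 59.4), and the same was true of 32.2% of the whole CAL27 list. Of the 16 SCC13 regions at the loci, 13 were also listed in CAL27, or 81.2% (54.4 to 96.0), and 75.6% of the whole SCC13 list. The whole-list shares lie inside both intervals, but the intervals are wide. Whether sharing at these loci differed from the rest of the lists was therefore not decided. The intervals cover counting error only, and neighbouring regions are not independent. The 13 had the same coordinates in both lists, as does every overlapping pair of these lists. A further 19 were specific to the CAL27 list and 3 to the SCC13 list.

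The windows differ in length, from 140 kb at ITGA3 to 600 kb at DST, so the counts were also taken per Mb. Over the 1.46 Mb of all windows there were 21.9 regions per Mb in CAL27, beside 4.55 over the genome, and 11.0 in SCC13, beside 1.94 over the genome. The windows were drawn around genes and the genome includes long stretches without genes, so this difference is a description and not a test. PLEC had the densest window in CAL27, with 50.0 regions per Mb against 3.83 on the whole of chromosome 8, and ITGB4 the densest in SCC13, with 33.3 against 2.87 on chromosome 17. ITGA6 was the sparsest in CAL27, at 12.0 per Mb, with 4.90 on chromosome 2. DST, first by count in CAL27, came after PLEC, ITGB4 and COL17A1 by density, at 16.7 per Mb, with 5.13 on chromosome 6.

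**Figure D2:**
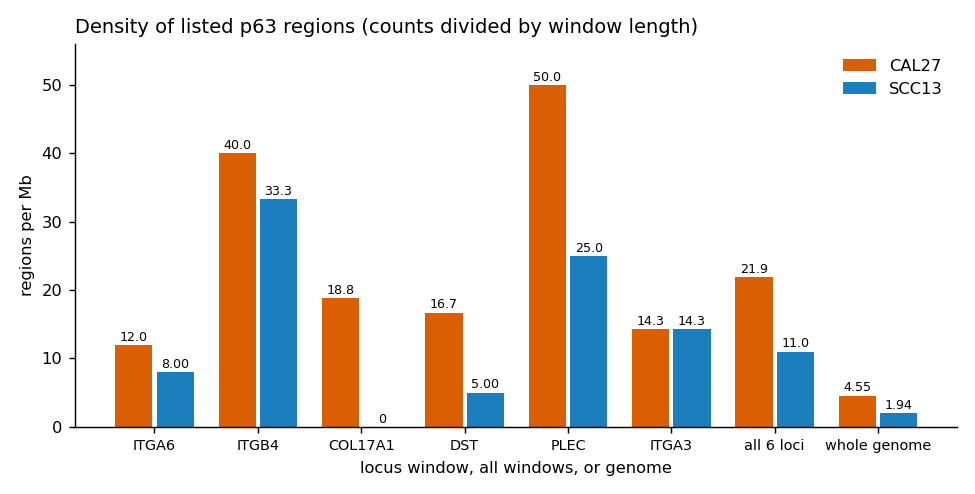
Regions per Mb (y axis) in each window, over all 6 windows and over the genome (x axis), with CAL27 in orange on the left and SCC13 in blue on the right. PLEC reaches 50.0 in CAL27 and 25.0 in SCC13, and the genome stands at 4.55 in CAL27 and 1.94 in SCC13.

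The window of ITGB4, the signalling chain of the laminin receptor, had nearly the same map in both lines. This window, chromosome 17 from 73.65 to 73.80 Mb in band 17q25.1, held 6 regions in CAL27 and 5 in SCC13, and the 5 were shared. The shared regions lay at 73680678 to 73681536, 73684497 to 73686146, 73696347 to 73697176, 73717076 to 73718121 and 73719069 to 73719864. They formed a group of 3 spanning 16.5 kb and a pair 1.87 kb apart by midpoints, with both groups in both lines. The widest of them, at 73684497, was 1650 bp wide, wider than 96.3% of CAL27 regions and 94.7% of SCC13 regions. The remaining region, at 73780455 to 73782122, was listed in CAL27 only. It was 1668 bp wide and lay 61.8 kb from the nearest SCC13 region. Its place near the end of the window, 18.7 kb from the edge, does not tell which gene it lies in. In RefSeq order SAP30BP precedes ITGB4, and GALK1, which encodes an enzyme of galactose use, follows it. A region in the window, shared or not, may therefore belong to a neighbour.

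ITGA6, the partner chain of ITGB4, had 1 shared region and otherwise different regions in each line. The window was chromosome 2 from 173.20 to 173.45 Mb, in band 2q31.1. DLX2 and PDK1 neighbour ITGA6 in RefSeq order, so a region in the window may belong to a neighbour. The shared region, at 173272799 to 173274286, was 1488 bp wide and wider than 93.9% of the CAL27 list and 91.3% of the SCC13 list. CAL27 alone listed 2 more, of 716 bp at 173237151 to 173237866 and of 362 bp at 173294168 to 173294529. The 362 bp region was the narrowest at any of the 6 loci, with 0.947% of CAL27 regions narrower. SCC13 alone listed 1, of 1070 bp at 173306670 to 173307739, wider than 71.4% of its list and 12.9 kb from the nearest CAL27 region. No members of ITGA6 lay close enough in either list to be grouped as neighbours, for which midpoints had to be within 12500 bp.

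COL17A1, the transmembrane collagen of the plaque, was the locus without a listed region in SCC13. CAL27 had 3 regions in the window, chromosome 10 from 105.74 to 105.90 Mb in bands 10q24.33 and 10q25.1. They lay within 10.2 kb of each other, at 105842739 to 105843653, 105845382 to 105846055 and 105852485 to 105852916. Their widths were 915, 674 and 432 bp, and 64.0%, 34.0% and 3.96% of CAL27 regions were narrower than each in turn. The SCC13 region nearest to them lay 124 kb away, outside the window. It was a region of both lines at 105718605 to 105719202, with its midpoint 21.1 kb before the window. Over the whole genome, windows of 160 kb without an SCC13 region are common. When the genome was divided into tiles of that width, 23.4% held at least 1 SCC13 region, and 40.2% at least 1 CAL27 region. The tiles include long stretches without genes, while the COL17A1 window was drawn around a gene. SLK, a kinase gene, and SFR1, a recombination factor gene, neighbour COL17A1 in RefSeq order. A region in this window may also belong to a neighbour.

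DST, which encodes the plakin BP230 besides longer forms used in muscle and nerve, had the most regions in CAL27. All 10 CAL27 regions fell between 238 and 385 kb from the start of the 600 kb window, chromosome 6 from 56.27 to 56.87 Mb in band 6p12.1, and 3 of them were shared. SCC13 listed those 3 and no other. The shared regions were at 56507331 to 56508763, 56517105 to 56518202 and 56611148 to 56612023, and their widths were 1433, 1098 and 876 bp. The first 2 shared regions stood at the low end of a run of 6 CAL27 regions from 56507331 to 56533555, whose midpoints were 3.02 to 9.61 kb apart. The other 4 of the run were listed in CAL27 only, and they were 745 to 987 bp wide. A shared and a CAL27-only region made a second pair, 1.50 kb apart, 76.9 kb further along. The widest region of the CAL27-only kind was the one at 56528278 to 56529264, 987 bp wide and 11.1 kb from the nearest SCC13 region. The shared region at 56507331 was the widest of the locus in both lists, with 92.6% of CAL27 regions and 89.8% of SCC13 regions narrower. Of 600 kb tiles of the genome, 71.6% held a CAL27 region and 56.6% an SCC13 region. These tiles too include long stretches without genes. In RefSeq order COL21A1 precedes DST and BEND6 follows it, so a region in the window may belong to a neighbour.

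PLEC, which encodes plectin, had 8 regions in CAL27 and 4 in SCC13, with 3 shared. The window was chromosome 8 from 144.94 to 145.10 Mb, in band 8q24.3. Shared regions of 1380 and 1709 bp lay side by side at 145010406 to 145011785 and 145013291 to 145014999, 3.05 kb apart. The third, of 580 bp, lay at 145079230 to 145079809, and 19.9% of CAL27 regions and 16.4% of SCC13 regions were narrower. The CAL27-only regions were 5, and 4 of these lay in the first 40.3 kb of the window. In RefSeq order EPPK1, which encodes the related plakin epiplakin, precedes PLEC on the chromosome and PARP10 follows it, so a region near an edge may belong to a neighbour. The fifth, at 145059713 to 145061477, was 1765 bp wide, the widest at any of the 6 loci, and 97.4% of CAL27 regions were narrower. Its nearest SCC13 region, 9.75 kb away, was the SCC13-only region at 145070154 to 145070532, which at 379 bp was the narrowest SCC13 region at the loci.

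ITGA3, the integrin chain outside the plaque proper, had 2 regions in each line. The window was chromosome 17 from 48.08 to 48.22 Mb, in band 17q21.33. The shared region was at 48139528 to 48140440 and 913 bp wide. CAL27 alone listed a region of 601 bp at 48104956 to 48105556, 34.7 kb from the nearest SCC13 region. SCC13 alone listed a region of 854 bp at 48184791 to 48185644, 41.0 kb from the nearest CAL27 region. DLX3 and PDK2 neighbour ITGA3 in RefSeq order, so a region in the window may belong to a neighbour. ITGA3 was the sole locus at which the lines had equal counts, of 2 each. With 1 region in common, the exact binomial interval of the shared percentage, 50.0% in either line, ran from 1.26 to 98.7.

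**Figure D3:**
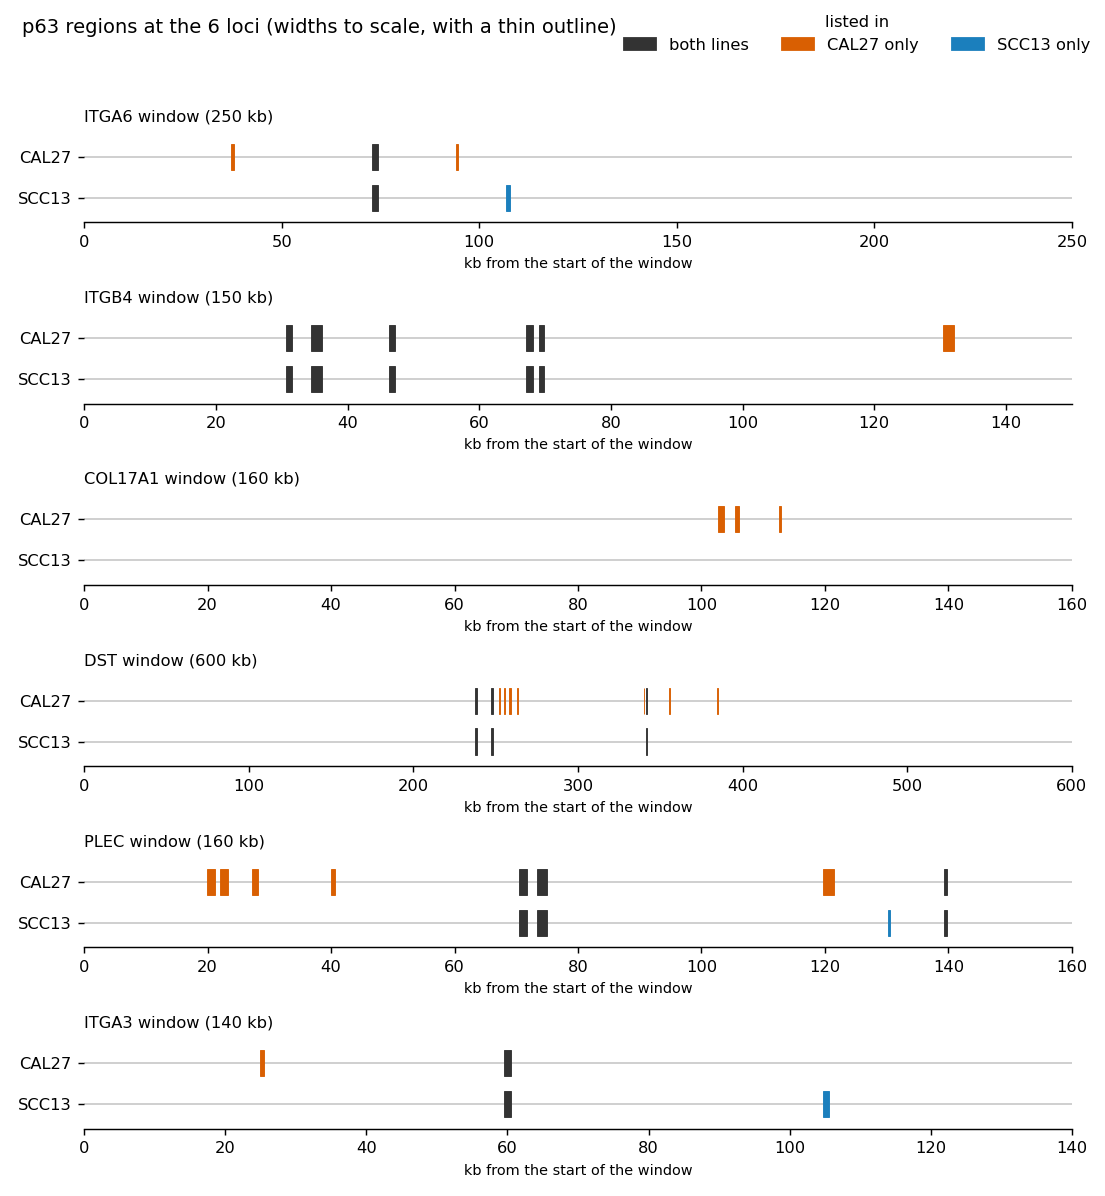
Positions of the p63 regions along each window, in kb from the window's start (x axis, a scale of its own for each locus), with CAL27 on the upper line and SCC13 on the lower line. Dark boxes are listed in both lines, orange in CAL27 only and blue in SCC13 only; the run of 6 CAL27 regions at DST begins with 2 dark boxes, and the COL17A1 line of SCC13 is empty.

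Most regions at the loci had a close neighbour in their own list. By the same distance of 12500 bp, 21 of the 32 CAL27 regions had one inside their window, or 65.6%, beside 25.2% of the whole CAL27 list. In SCC13 it was 11 of 16, or 68.8%, beside 12.3% of the list. The windows also hold more regions per Mb than the genome, and these shares were not adjusted for density. Groups of at least 2 regions were found at ITGB4, COL17A1, DST and PLEC in CAL27, 7 in all, and at ITGB4, DST and PLEC in SCC13, 5 in all. With a joining distance of 5 kb there were 7 in CAL27 and 3 in SCC13. The integrin alpha chain loci, ITGA6 and ITGA3, had none in either line. Counting neighbours once left 12.3 groups or single regions per Mb in CAL27, beside 3.92 over the genome, and 6.85 in SCC13, beside 1.81.

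Shared regions at the loci had a median width of 1046 bp (range 580 to 1709, 13 regions), beside 934 bp for all 4448 shared regions. Those listed in CAL27 only had a median of 759 bp (362 to 1765, 19 regions), beside 723 bp for all 9381 of that kind. The 3 SCC13-only regions measured 379, 854 and 1070 bp, beside a median of 589.5 bp over 1438. The ranges of the classes overlap widely. A shared region has the same coordinates in both lists, so its width is not a separate measurement in each line. Over each line's members the median was 872.5 bp in CAL27, beside 791 bp for its list, and 979.5 bp in SCC13, beside 862 bp.

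Sharing at the loci was also counted by width. Of the 21 CAL27 members wider than the median of their list, 12 were also listed in SCC13, where 44.3% of all such CAL27 regions were; of the 11 others, 1 was, where the share over the list was 20.1%. That narrow region was the one of 580 bp at PLEC. Of the 10 wider SCC13 members, 9 were also listed in CAL27, beside 90.6% over the list, and of the 6 others, 4 were, beside 60.6%. The 9 wider CAL27 members missing from the SCC13 list lay at PLEC (4), DST (3), ITGB4 (1) and COL17A1 (1), and the wider SCC13 member missing from the CAL27 list was the 1070 bp region of ITGA6. Shared regions have the same coordinates in both lists, so width may not be independent of sharing, which was not tested. Width is no measure of binding strength, and the lists give none.

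**Figure D4:**
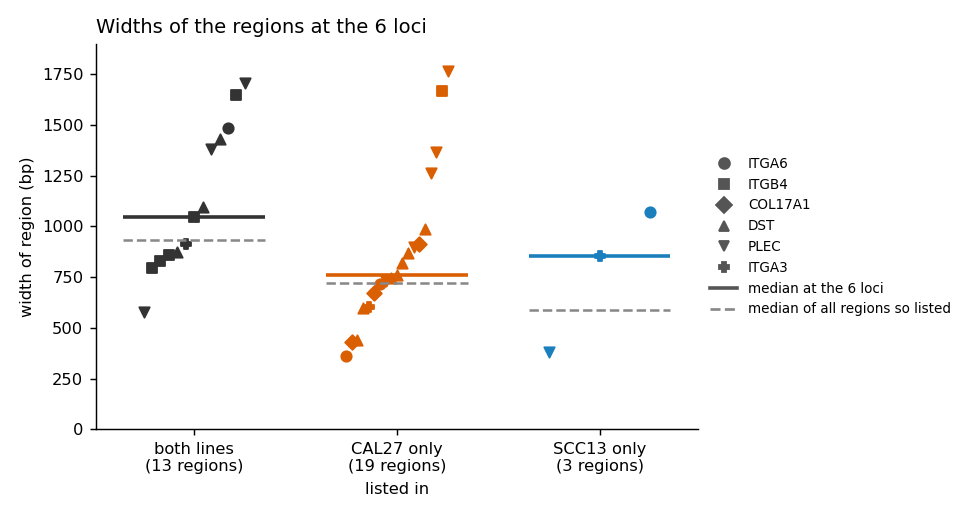
Width in bp (y axis) of each of the 35 regions at the loci, by the lists that hold it (x axis), with a symbol for each locus. Solid lines are medians at the loci, 1046 bp for shared, 759 bp for CAL27-only and 854 bp for SCC13-only regions; dashed lines are medians of all regions so listed.

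The counts depend in part on where the windows end. The region closest outside was one of CAL27, 6.21 kb beyond the ITGA3 window, followed by one of both lines 11.0 kb before the PLEC window. Inside, the regions nearest to an edge lay 18.7 kb from it at ITGB4 and 20.5 kb from either edge at PLEC. With each window 50 kb longer at both ends, COL17A1 gained 2 regions in each line, to 5 in CAL27 and 2 in SCC13, so its lack of SCC13 regions holds for the window as drawn. PLEC then had 11 regions in CAL27 and 7 in SCC13. Gene starts, exons and introns of hg19 were not used, so no region is placed within a gene here.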

How the data were processed

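Per the labels, cells were crosslinked with formaldehyde and chromatin was precipitated with a p63 antibody. The submitters' processing notes name the build hg19 and the tools Bowtie2, SAMtools 1.8 and MACS2. What each tool did, how peaks were thresholded and what the samples titled none were used for is not stated in the sources. Each file the authors deposited gives the chromosome, start and end of every region of a line, which the labels tie to both p63 replicates, and no other measurement. Depth is unknown.

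Windows were read from the rule that defines the loci, and positions are printed counted from 1. A region was shared when it overlapped one of the other list by at least 1 bp. Neighbours were joined within 12500 bp. Densities used hg19 lengths of the 22 autosomes and X from GenomeInfoDb 1.38.1, and bands came from circlize 0.4.16, under R 4.3.3. Intervals are exact Clopper-Pearson at 95%. Promoters were taken from RefSeq, GRCh38.p14, whose gene table gave neighbours by order alone. At each locus the rule for naming took every shared region and the widest line-only region per line; further regions were named after their values were seen. Members, windows and lists were chosen with earlier results of these data known. Other genes of the pathway were not analysed here for want of hg19 gene positions. Calculations ran in Python 3.11.15 (matplotlib 3.10.9, pandas 2.3.3, scipy 1.17.1, numpy 2.4.6), and the sharing and joining functions were tested on simulated data.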

Additional observations from a re-analysis of the deposited data

How the results depend on the processing

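No paired analysis was possible because each line has 1 list for both replicates; for the same reason no replicate could be left out. The shared percentages, 40.6% of CAL27 and 81.2% of SCC13 members, were the same for identical positions and for an overlap of at least 50% of both regions, which identical coordinates ensure. Leaving out each locus in turn gave 30.8% (without ITGB4) to 45.5% (without DST) in CAL27 and 72.7% (without ITGB4) to 85.7% (without ITGA6) in SCC13. All lay inside the exact intervals, which are wide. Without ITGB4 the shares fell below those of the whole lists, 32.2% in CAL27 and 75.6% in SCC13. Leaving out members no wider than their list's median left 21 in CAL27 and 10 in SCC13, as fewer regions entered. Counting neighbours once gave 12.3 per Mb in CAL27 and 6.85 in SCC13. Joining within 5 kb left 3 groups in SCC13 in place of 5. The other 59 of 64 alternatives for all loci jointly stayed within the interval or within 1.5 times the value. For single loci 38 of 48 did, and the 10 others came from leaving out narrow regions or from windows 50 kb longer. Some of the 59 could not move. These include the changes of the overlap rule, and the shared percentage and median width of SCC13 without COL17A1, which had no SCC13 region. The depth of the libraries is unknown.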
